A study of Homo sapiens with 2 samples.

Results

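Chemokines, interleukins and the receptors of both were taken by name as the protein-coding genes whose symbol begins with CXCL, CXCR, CCL, CCR, CX3C or XCL, or with IL followed by a digit. The rule used no expression value. It found 149 genes in the GENCODE annotation of GRCh37. For 139 of them the identifier was among the 57736 genes of the count table, and 10 CC ligand genes without a matching identifier were not analysed here. A rule on names also takes in IL4I1, a secreted amino acid oxidase, and IL18BP, a soluble protein that binds IL-18. It leaves out relatives with other names, such as LIFR and TNF, which are described with the pathway genes.

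Chemokines are small secreted proteins that steer migrating cells through receptors of the G protein-coupled kind, and interleukins are secreted signals read by receptors that work in pairs or larger assemblies. CXC ligands that carry an ELR motif ahead of their cysteines attract neutrophils, whereas the interferon-induced CXC ligands attract T cells. Receptors of the IL-1 family signal through MYD88 and IRAK kinases to NF-kB, and most other interleukin receptors signal through JAK kinases and STAT factors. Carcinoma cells are known to make some of these ligands themselves, while many of the receptors are best known from leukocytes.

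The data were RNA-seq read counts from A1847, a human ovarian cancer cell line. The parental library came from cells with wild-type CARM1, an arginine methyltransferase that acts as a transcriptional coactivator. The CARM1 KO library came from A1847 cells carrying a CRISPR knockout made with a guide cloned into pLentiCRISPR v2. Per the study's methods the knockout was 1 clone set against parental cells, so loss of CARM1 and traits of that clone cannot be told apart. Both were grown in the same medium with serum. There was 1 library per condition, with 30741953 counted reads in the parental and 32300391 in the CARM1 KO library, so there is no spread between replicates and no test was possible.

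CARM1 itself had 975 reads in the parental and 380 in the CARM1 KO library, 2.63-fold lower (95% counting interval 2.33 to 2.97). Of 10 ovarian carcinoma and epithelial markers, 6 were higher past 3-fold in the CARM1 KO library and 1, KRT19, was lower, and their summed reads were 43988 in the parental and 151486 in the CARM1 KO library. MUC16, with 0 and 1 reads, and WT1, with 8 and 1, were near absent from both. The 12 leukocyte markers summed to 38 and 49 reads, with PTPRC, the pan-leukocyte surface phosphatase, at 6 and 0 and the T cell genes CD3E and CD3D at 0 in both libraries. The 3 endothelial markers with an identifier summed to 11 and 12 reads. The 4 fibroblast markers summed to 14542 and 540 reads, nearly all of the first from PDGFRA with 14326 and 2, while DCN had 24 and 0, LUM 61 and 1, and COL1A1 131 and 537. Of these 4, 3 were lower and 1 was higher past 3-fold, and their part in the results that follow was not tested.

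Reads were compared as the ratio of the CARM1 KO to the parental library after TMM scaling, with an exact 95% interval for counting error alone. A gene was called past 3-fold where at least 10 reads fell in both libraries together, the ratio exceeded 3 in either direction and the interval excluded 1. The ratios compare these 2 libraries, not the conditions, and in bulk RNA fewer cells that express a gene and less RNA per cell cannot be told apart. Of the 139 genes, 53 had 0 reads in both libraries, 27 had between 1 and 9, and 59 had at least 10. Of these 59, 21 were higher and 8 were lower past 3-fold in the CARM1 KO library, and 30 were neither. Across all 18563 genes with at least 10 reads, 12.4% were higher and 11.2% lower by the same rule, and among the 14140 protein-coding ones 12.4% were higher and 9.02% lower. The share of chemokine and interleukin genes that were higher was 35.6%, well above that background, and the share that were lower was 13.6%, close to it, and these shares were not tested against each other. The exact test of edgeR was also run with an assumed coefficient of variation of 0.4 between replicates. It still called 8 of the 21 higher members (CXCR4, IL18, IL1A, IL1B, IL1R2, IL32, IL34 and IL7R). Of the 8 lower members it still called 5, among them CCR1, CXCL11, IL17D and IL1RAPL2. Over the same 18563 genes that test called 543 higher and 888 lower. The median log2 ratio was 0.72 over the 59 genes and -0.03 over all genes. Together the members took 0.0746% of parental reads and 0.137% of CARM1 KO reads. IL7R, IL18 and IL6ST had the highest levels in the CARM1 KO library, and CCR1, IL1RAPL2 and IL6ST had the highest in the parental library, so the leading genes of the set were in part different ones.

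**Figure D1:**
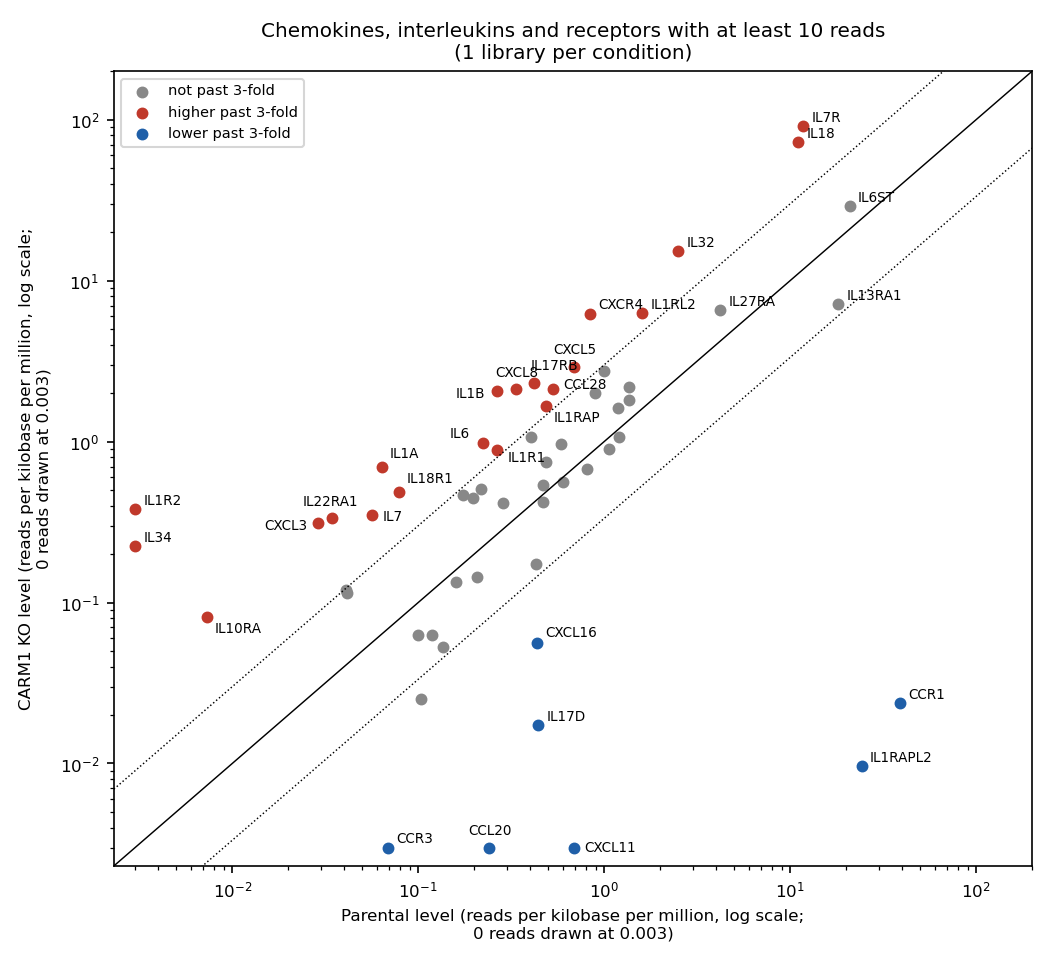
Level of the members with at least 10 reads, in RPKM (reads scaled by exon length and library size) on log axes, in the parental library (horizontal) and the CARM1 KO library (vertical). Points above the upper dotted line were more than 3-fold higher in CARM1 KO and points under the lower one more than 3-fold lower; the red and blue genes passed the rule, 1 gene is not drawn, and a gene with 0 reads is drawn at 0.003.

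The ELR-type CXC ligands stood together. Of 6 genes, 5 had at least 10 reads, all 5 had more in the CARM1 KO library, and 3 were past 3-fold. CXCL8, the main neutrophil attractant, had 27 reads in the parental and 175 in the CARM1 KO library, a 6.33-fold ratio (4.21 to 9.88). CXCL5 had 52 and 227 reads, 4.26-fold (3.14 to 5.88). CXCL3 had 2 and 22 reads, and its ratio of 10.7 carried a wide interval (2.64 to 94.3). These 3 were the ligands of the group that were higher past 3-fold. CXCL2 went from 39 to 90 reads, 2.25-fold (1.53 to 3.37), and CXCL1 from 58 to 95, 1.60-fold (1.14 to 2.26). CXCL6 had 0 reads in both. Levels were low in both libraries: the highest of them in the CARM1 KO library was CXCL5 at 2.92 RPKM, reads scaled by the length of the gene's exons and by library size. CXCL2 and CXCL3 share 7.56% and 4.57% of their 75-base stretches, mostly with each other, so a few of their reads may have been split between the copies.

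The 5 ELR-type genes with reads lie within 359 kb of chromosome 4 (74606236 to 74964913, GRCh37). They are shown with their promoters because GGAATTTCC, a single form of the more variable NF-kB site, stands at a like distance before each start. The motif was searched on both strands of a window from 250 bases before to 50 bases after each RefSeq start, and it was chosen after the values and sequences were seen. Each line gives 110 bases before and 10 after the start, 5′ to 3′ on the gene's strand, with matches to GGNNTTTCC, the looser form that includes GGAATTTCC, in capitals. The letters are those of the RefSeq promoter table for GRCh38.p14, and the GRCh37 positions come from an exact match that occurs 1 time in that genome.
CXCL8, chr4:74606176-74606295, plus strand: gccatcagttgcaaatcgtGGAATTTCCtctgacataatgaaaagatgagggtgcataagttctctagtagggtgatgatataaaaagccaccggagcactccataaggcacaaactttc
CXCL1, chr4:74735000-74735119, plus strand: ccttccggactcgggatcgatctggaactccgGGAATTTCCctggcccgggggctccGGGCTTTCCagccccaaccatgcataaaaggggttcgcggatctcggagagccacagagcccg
CXCL5, chr4:74864385-74864504, minus strand: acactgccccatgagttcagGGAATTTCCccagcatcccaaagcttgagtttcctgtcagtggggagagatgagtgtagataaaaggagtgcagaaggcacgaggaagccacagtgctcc
CXCL3, chr4:74904397-74904516, minus strand: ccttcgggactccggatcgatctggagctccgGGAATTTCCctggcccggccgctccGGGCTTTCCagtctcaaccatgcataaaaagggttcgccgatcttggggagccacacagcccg
CXCL2, chr4:74964903-74965022, minus strand: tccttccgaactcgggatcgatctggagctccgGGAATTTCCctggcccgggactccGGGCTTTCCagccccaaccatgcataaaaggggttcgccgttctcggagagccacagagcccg

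The match began 91 bases before the start in CXCL8, 90 in CXCL5, 78 in CXCL1 and CXCL3, and 77 in CXCL2. CXCL1, CXCL2 and CXCL3 carried a second match to the looser form 53 bases before the start. Promoter windows were given for 49 of the 59 members, and 6 of these 49 (12.2%) held GGAATTTCC, against 0.56% of 27305 genes with a window. The 6 were these 5 ligands and CXCL11, so the motif stood before ligands that were higher past 3-fold, before CXCL1 and CXCL2, which were not, and before a gene that was lower. The 5 ligands are related neighbours, and the CXCL1, CXCL2 and CXCL3 promoters are closely alike, so these matches are not independent. The 49 members had at least 10 reads, whereas the 27305 genes were not filtered on reads. The looser GGNNTTTCC was in 17 of 49 members (34.7%) and in 7.61% of all genes, and in 50% both of the 18 higher and of the 6 lower members with a window. A match is a stretch of letters and says nothing of binding in these cells.

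The remaining chemokine ligands that could be analysed were mostly silent. CXCL11, an interferon-induced attractant of T cells, had 38 reads in the parental and 0 in the CARM1 KO library, at least 13.0-fold lower against a floor of 3 reads, with a counting interval that began at 10.0. Such bounds come from the floor, and the interval's own limit is given with each. CXCL16, a transmembrane ligand of CXCR6, had 38 and 5 reads, 7.78-fold lower (3.06 to 25.3). Both other CXC ligands with at least 10 reads were therefore lower past 3-fold. CXCL11 overlaps ART3, which had 19 and 1 reads, on the opposite strand, and CXCL16 overlaps MED11, which had 380 and 456. These are overlaps of gene spans, so reads could be shared where exons overlap and strand was not used. CXCL9 had 0 reads in both libraries, and CXCL10, a close relative of CXCL11, had 0 and 1.

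The promoter of CXCL11 is given because it holds the same motif on the other strand, 75 bases before the RefSeq start, in capitals here.
CXCL11, chr4:76957214-76957333, minus strand: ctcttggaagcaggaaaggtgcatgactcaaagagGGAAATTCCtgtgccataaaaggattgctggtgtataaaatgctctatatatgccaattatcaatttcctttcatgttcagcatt

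Of the 19 CC ligand genes with an identifier in the count table, 14 had 0 reads in both libraries. Among them were CCL2, the monocyte attractant that many tumour lines secrete, and the lymph node ligands CCL19 and CCL21. CCL3, CCL4 and CCL5 were among the 10 CC ligand genes without a matching identifier, which were not analysed. CCL28, a mucosal epithelial chemokine, had 75 and 307 reads, 4.0-fold higher (3.10 to 5.22) in the CARM1 KO library. CCL20, the ligand of CCR6, had 12 and 0 reads, at least 4.10-fold lower against the floor (interval from 2.84). The CC ligands analysed thus gave 1 gene in each direction. CX3CL1, the membrane-bound fractalkine, had 3 and 6 reads, under the minimum, and XCL1 and XCL2 had 0.

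Of 18 chemokine receptor genes, 7 had at least 10 reads, of which 1 was higher and 3 were lower past 3-fold. CXCR4, the receptor for CXCL12, had 76 reads in the parental and 578 in the CARM1 KO library, 7.43-fold higher (5.84 to 9.56), while its ligand CXCL12 had 1 and 0. CCR1, a receptor for inflammatory CC ligands, had 3208 and 2 reads, 1642-fold lower (454 to 13567). Its parental level of 38.9 RPKM was the highest of any member in that library, and it was 0.0237 in the CARM1 KO library. CCR3, the eosinophil receptor, had 13 and 0 reads, at least 4.44-fold lower against the floor (interval from 3.12). CCR1 was thus nearly silent and CCR3 without a read in the CARM1 KO library. CCR10 had 17 and 12 reads, CCR4 had 15 and 13, and CCRL2 had 11 and 6, and none of these was past 3-fold. CXCR1 had 0 reads in both libraries and CXCR2 had 4 and 0, so the receptors for the ELR-type ligands were at or near 0. The 12 leukocyte markers summed to 38 reads in the parental and 49 in the CARM1 KO library. Their relation to the CCR1 reads was not tested.

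CCR1 and CCR3 are neighbours in a chemokine receptor cluster of chromosome 3 (45925917 to 46454488, GRCh37). The gene clusters described here were chosen after the values were seen. XCR1, a chemokine receptor in the same cluster that the naming rule leaves out, had 26 and 0 reads, at least 8.87-fold lower against the floor (interval from 6.72). CXCR6 had 3 and 0 reads, CCR2 had 1 and 0, and CCR9 had 0 in both. CCRL2, at the end of the cluster, had 11 and 6 reads and was not past 3-fold. CCR1, CCR3 and XCR1 were thus lower, and most genes of other kinds around them were not past 3-fold. LZTFL1, which lies inside the cluster, had 601 and 1123 reads and FYCO1 had 804 and 1042. Of the 10 flanking protein-coding genes with at least 10 reads, 5 on each side, 1 was higher and 1, TMEM158 with 61 and 10 reads, was lower past 3-fold, with a median log2 ratio of -0.02 and a range from -2.64 to 1.76. CCR1 lies within the span of CCR3 on the opposite strand, and whether the counting used strand is not stated, so the 13 reads of CCR3 could include some from CCR1.

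**Figure D2:**
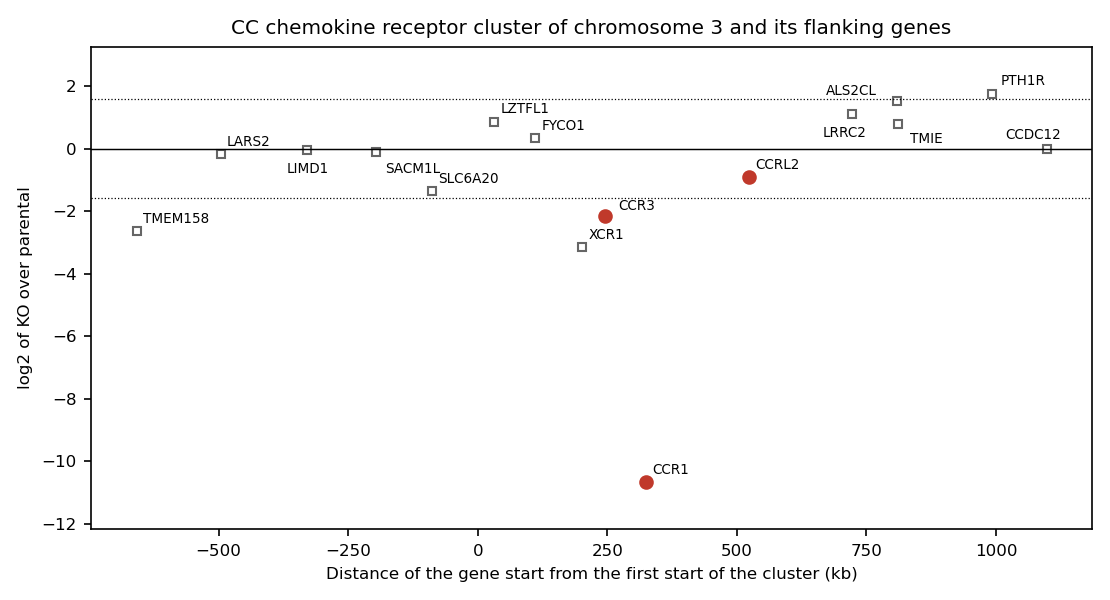
Log2 ratio of CARM1 KO to parental reads at the chemokine receptor cluster of chromosome 3, by distance of each gene's start from the first start of the cluster in kb. Red circles are members. Open squares are the other protein-coding genes inside and beside the cluster, among them XCR1, a receptor that the naming rule leaves out. The genes drawn had at least 10 reads, dotted lines mark 3-fold, and CCR3 and XCR1, with 0 reads in CARM1 KO, are set against 3 reads; CCR1 lies at -10.68 and the flanking genes between -2.64 and 1.76.

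Of the IL-1 family ligands, 3 of 11 had at least 10 reads, and all 3 were higher past 3-fold. IL18, which inflammasome caspases process to an active form, had 900 reads in the parental and 6033 in the CARM1 KO library, 6.55-fold (6.10 to 7.03), and its level reached 72.6 RPKM. IL1B, processed in the same way, had 25 and 197 reads, 7.70-fold (5.06 to 12.2). IL1A, an alarmin active without processing, had 4 and 45 reads, 11.0-fold (4.01 to 42.1). IL18 was thus the abundant member, with IL1A and IL1B far under it in both libraries. IL1RN, the natural IL-1 antagonist, had 0 reads in both libraries, and IL33 had 1 and 0. The IL-36 genes, IL37 and IL1F10 had at most 1 read in either library.

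The receptors of the IL-1 family were also mostly higher. Of 10 genes that include the binding protein, 7 had at least 10 reads, 5 were higher and 1 was lower past 3-fold. IL1R1, the signalling IL-1 receptor, had 59 and 202 reads, 3.34-fold (2.49 to 4.55), and its partner chain IL1RAP had 169 and 599, 3.46-fold (2.91 to 4.13). IL1R2, a decoy that binds IL-1 without signalling, had 0 and 36 reads, at least 11.7-fold higher against the floor (interval from 9.05). IL1RL2, the IL-36 receptor, had 130 and 523 reads, 3.93-fold (3.24 to 4.80). The signalling receptor, its partner and the decoy were thus higher side by side. IL18R1, the binding chain for IL-18, had 11 and 70 reads, 6.22-fold (3.27 to 13.0), whereas IL18RAP, the second chain of that receptor, had 0 in both libraries. IL18BP had 85 and 101 reads, a ratio of 1.16 (0.861 to 1.57). IL1RAPL2, a neuronal relative of IL1RAP on chromosome X, had 2463 and 1 reads, 2522-fold lower (452 to 99644), and a level of 24.2 RPKM in the parental library. Its own relative IL1RAPL1 had 7 and 2 reads. Among the 10 genes that flank IL1RAPL2, 1 was lower past 3-fold, PWWP3B with 2575 and 37 reads, and 1 was higher, with a median log2 ratio of -0.12.

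IL1R2, IL1R1, IL1RL2 and IL18R1 lie within 461 kb of chromosome 2 (102608422 to 103069025, GRCh37), and all 4 were higher. The 10 flanking genes had a median log2 ratio of 0.86, with 2 of them higher past 3-fold and 0 lower. IL1A and IL1B lie in a cluster of 9 ligand genes further along that chromosome (113531502 to 113891593), whose 10 flanking genes had a median of 0.60, also with 2 higher and 0 lower. For the ELR-type cluster the flanking median was 0.69, with 2 higher and 0 lower. These 3 flanking medians lay above the -0.03 of all genes, and that of the chromosome 3 receptor cluster, at -0.02, lay close to it. The part of a wider regional difference in these ratios was not tested.

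**Figure D3:**
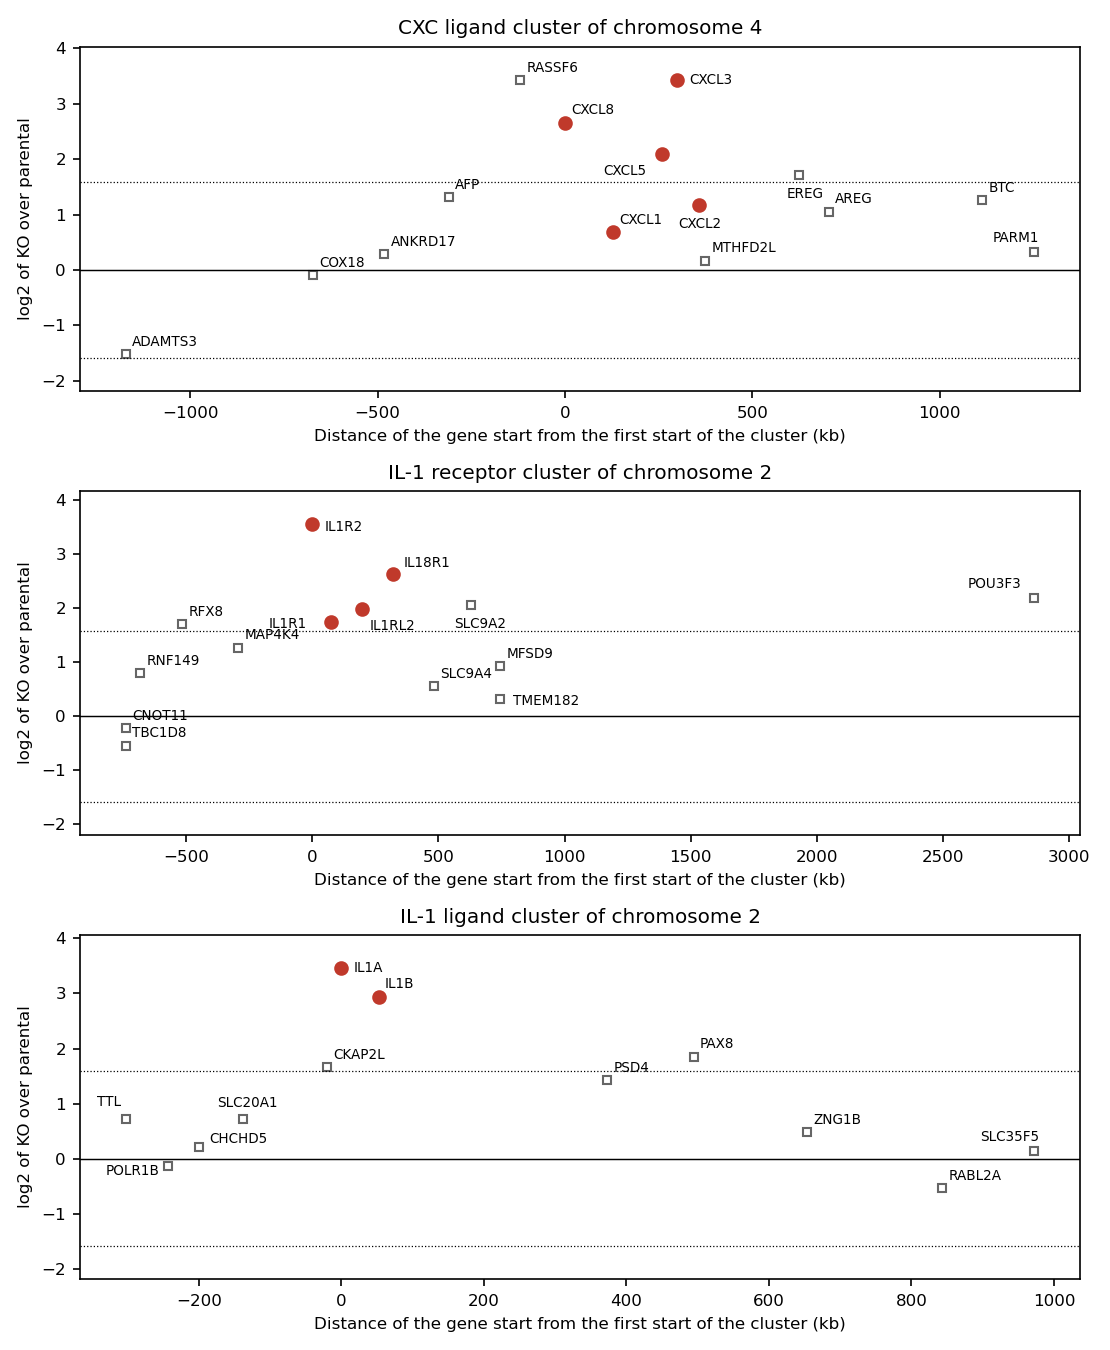
Log2 ratio of CARM1 KO to parental reads for members (red circles) and flanking protein-coding genes (open squares) at the ELR-type CXC ligand cluster of chromosome 4 and the IL-1 receptor and IL-1 ligand clusters of chromosome 2, by distance of the gene start from the first start of each cluster in kb. Dotted lines mark 3-fold and IL1R2, with 0 parental reads, is set against 3 reads; the flanking genes had medians of 0.69, 0.86 and 0.60.

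In the gp130 family, which signals through the shared chain IL6ST, 1 gene was past 3-fold. IL6ST had 7853 and 11186 reads, a ratio of 1.39 (1.35 to 1.43). IL6 itself had 30 and 136 reads, 4.43-fold higher (2.96 to 6.81), and was that gene, of 7 with at least 10 reads. IL6R, the ligand-binding chain, had 88 and 237 reads, 2.63-fold (2.05 to 3.40), and IL31RA had 62 and 170, 2.68-fold (1.99 to 3.64). Both ratios fell short of 3-fold. IL11 had 99 and 139 reads, 1.37-fold (1.05 to 1.79), its receptor IL11RA had 173 and 150, a ratio of 0.847 (0.676 to 1.06), and IL27RA had 387 and 621, 1.57-fold (1.38 to 1.78). Of the 75-base stretches of IL11RA, 25.1% are shared with a second annotated gene. The receptors with the most reads in this family thus stayed within 2-fold. IL6 overlaps STEAP1B, which had 139 and 526 reads, and IL6-AS1, which had 1 and 37, both on the opposite strand. These are overlaps of gene spans, so their reads could be shared with IL6 where exons overlap and strand was not used.

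The promoter of IL6 is shown for comparison with the ELR-type ligands: its match to the looser form, in capitals, stands 72 bases before the start.
IL6, chr7:22766709-22766828, plus strand: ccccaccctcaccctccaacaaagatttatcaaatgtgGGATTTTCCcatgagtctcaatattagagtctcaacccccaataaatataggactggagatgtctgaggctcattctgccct

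In the IL-2, IL-4, IL-7 and IL-15 family, 8 of 17 genes had at least 10 reads and 2 were higher past 3-fold, a ligand and its receptor. IL7R, the chain that binds IL-7 and TSLP, had 2203 reads in the parental and 17556 in the CARM1 KO library, 7.78-fold (7.45 to 8.14). At 91.5 RPKM it had the highest level of any member in the CARM1 KO library. IL7, its ligand, had 6 and 38 reads, 6.19-fold (2.59 to 17.9). It overlaps ZC2HC1A, with 275 and 495 reads on the opposite strand. IL2RG, the common chain that completes the IL-7 receptor on lymphocytes, had 0 and 1 reads. IL13RA1, a chain of the IL-13 receptor, had 2634 and 1060 reads, 2.54-fold lower (2.37 to 2.73), while its partner IL4R had 249 and 339, 1.33-fold higher (1.13 to 1.57). The decoy receptor IL13RA2 had 10 and 23 reads, IL15RA had 55 and 86, and IL21R had 17 and 11. IL15 had 10 and 30 reads, and its ratio of 2.93 (1.39 to 6.72) was the closest to 3-fold among those not called. IL2, IL4, IL9, IL13 and IL21, the T cell products of the family, had at most 1 read in either library.

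In the IL-10 family, 5 of 12 genes had at least 10 reads and 2 receptors were higher past 3-fold, both from few reads. IL22RA1, the epithelial IL-22 receptor, had 3 and 30 reads, a ratio of 9.77 (3.04 to 50), and IL10RA had 2 and 23, a ratio of 11.2 (2.78 to 98.3). The shared chain IL10RB had 146 and 246 reads, 1.65-fold (1.34 to 2.03), but 20.2% of its 75-base stretches also lie in a readthrough gene. IL10 had 58 and 24 reads, 2.47-fold lower (1.51 to 4.16), which was not past 3-fold, and IL22 had 0 in both. IL20RB had 46 and 44 reads and was not past 3-fold. In the IL-17 family, 6 of 12 genes had at least 10 reads. IL17RB, the receptor for IL-17B and IL-25, had 40 and 225 reads, 5.49-fold higher (3.91 to 7.90), and overlaps an lncRNA on the opposite strand with 90 and 64. IL17D, a ligand, had 50 and 2 reads, 25.6-fold lower (6.73 to 217). The common receptor chain IL17RA had 346 and 317 reads, a ratio of 0.895 (0.766 to 1.05). IL17RC had 141 and 399, 2.76-fold (2.28 to 3.37), with 41.7% of its 75-base stretches shared with a second annotated gene. IL17RD had 140 and 128 reads and IL17RE had 6 and 17, and neither was past 3-fold. IL17A and IL17F, the T cell ligands, had 0 reads in both. Receptor chains and a ligand of this family thus went in different directions.

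No gene of the IL-12 family was past 3-fold: IL12RB2 had 67 and 99 reads, IL12A had 49 and 42, and IL23A had 8 and 19. In the IL-3 and IL-5 family all 4 genes were under 10 reads. IL32, a secreted inducer of inflammatory cytokines that belongs to no larger family, had 251 and 1571 reads, 6.11-fold higher (5.35 to 7.01), and IL34, a second ligand of the CSF1 receptor, had 0 and 16, at least 5.21-fold higher against the floor (interval from 3.77). IL16 had 53 and 21 reads, 2.58-fold lower (1.53 to 4.51), and IL4I1 had 8 and 2, where the ratio of 4.10 had an interval that included 1 (0.817 to 39.6). By the rule neither was past 3-fold. The genes that were lower were at or near 0 in the CARM1 KO library: IL1RAPL2 and CCR1 were at 1 and 2 reads in the CARM1 KO library, IL17D and CXCL16 at 2 and 5, and CXCL11, CCR3 and CCL20 at 0. Among the 21 that were higher, in contrast, IL7R, IL18 and IL32 already had 2203, 900 and 251 reads in the parental library, and IL1R2 and IL34 had 0.

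**Figure D4:**
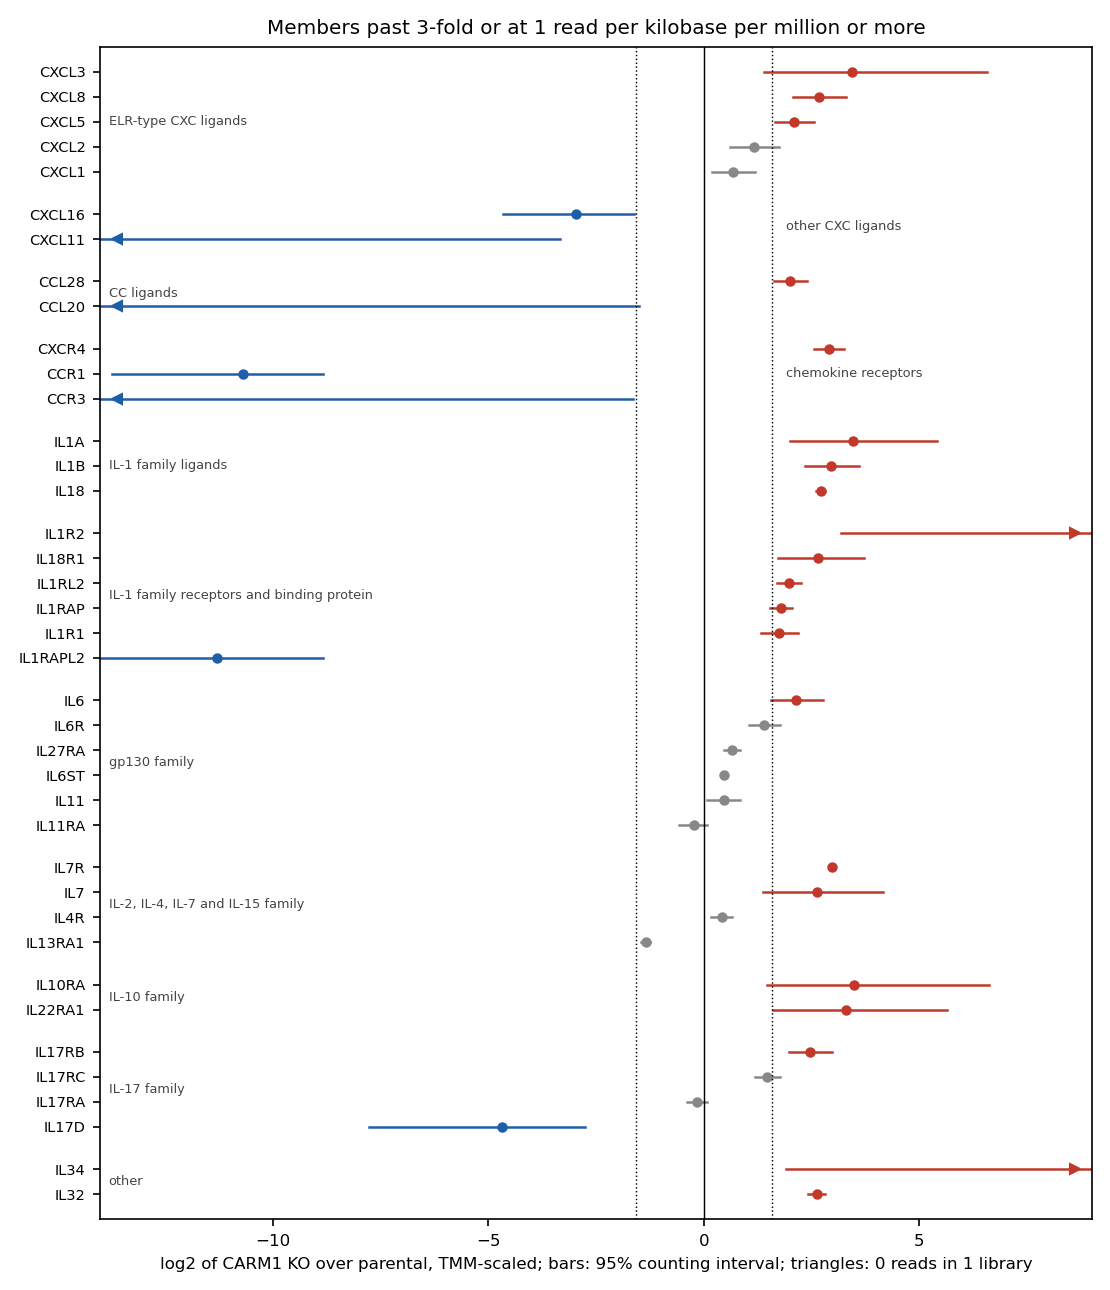
Log2 ratio of CARM1 KO to parental reads, TMM-scaled, for members past 3-fold or at 1 RPKM or more in either library, grouped by family. Bars are 95% counting intervals and those that meet the frame run past it, triangles mark genes with 0 reads in 1 library and dotted lines mark 3-fold; 1 gene is not drawn, higher genes are red and lower genes blue, and the IL-1 family ligands lie together near 3.

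The pathways that these ligands and receptors use were read from 5 lists. Of 105 pathway genes with at least 10 reads, 16 were higher and 10 lower past 3-fold, with a median log2 ratio of 0.20. These shares of 15.2% and 9.52% lay near the 12.4% and 11.2% of all genes. In the NF-kB list, 1 of 23 was higher, TNFAIP3, the feedback inhibitor A20, with 51 and 292 reads, 5.59-fold (4.14 to 7.69), and 1 was lower, the adaptor TRAF5 with 592 and 170, 3.57-fold (3.0 to 4.25). The subunits NFKB1, with 2092 and 1874 reads, and RELA, with 611 and 882, and the inhibitor NFKBIA, with 918 and 1689, were within 2-fold. The NF-kB list as a whole had a median log2 ratio of -0.15.

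Of 20 adaptors and other genes of IL-1, IL-18 and IL-17 receptor signalling, 4 (20%) were higher and 0 lower past 3-fold. Over all genes 12.4% were higher and 11.2% lower, and the difference from these shares was not tested. MYD88, the adaptor of the IL-1 and IL-18 receptors, had 24 and 108 reads, 4.40-fold (2.80 to 7.16). IRAK3, an inhibitory member of the IRAK kinases, had 134 and 732, 5.34-fold (4.43 to 6.46). CASP1, the caspase that processes IL1B and IL18, had 14 and 112 reads, 7.81-fold (4.47 to 14.8), and PELI2, a ubiquitin ligase of this pathway, had 13 and 65, 4.88-fold (2.67 to 9.66). Both an activating and an inhibitory gene were thus among the 4, and the list's median log2 ratio was 0.24.

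In the JAK-STAT list of 25, 3 were higher and 3 lower, 12% in each direction and close to the shares over all genes. JAK1, the kinase of the gp130, IL-7 and IL-10 receptors among others, had 2134 and 7249 reads, 3.32-fold higher (3.16 to 3.48). STAT5A had 23 and 138, 5.86-fold (3.75 to 9.55), and STAT4 had 2 and 20, a ratio of 9.77 (2.37 to 86.2). Those lower are known as inhibitors of the pathway. SOCS2 had 4652 and 166 reads, 28.7-fold (24.6 to 33.7), SOCS3 had 1478 and 429, 3.53-fold (3.17 to 3.94), and PIAS2, a ligase for SUMO, had 1123 and 333, 3.45-fold (3.05 to 3.91). Other inhibitors of the list, named after their values were seen, were not past 3-fold: SOCS4 had 4324 and 4189 reads, SOCS5 1545 and 1337, SOCS6 1836 and 1085, and CISH, the founding member of that family, 34 and 68. PIAS1 had 708 and 1030, PIAS3 495 and 244, and PIAS4 666 and 508. STAT3, with 984 and 1339 reads, stayed within 2-fold.

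Of 19 genes of chemokine receptor signalling, 4 (21.1%) were higher and 4 (21.1%) lower. Over all genes the shares were 12.4% and 11.2%, and the difference was not tested. DOCK2, an activator of RAC best known from leukocytes, had 125 and 1662 reads, 13.0-fold higher (10.8 to 15.7). ACKR3, the atypical receptor that shares CXCL12 with CXCR4, had 2 and 38, a ratio of 18.6 (4.80 to 159). GNG2, a G protein subunit, had 25 and 120 reads and PREX1, a RAC exchange factor, had 182 and 567. The receptor kinase gene GRK3 had 1206 and 302 reads, 4.09-fold lower (3.60 to 4.65), RGS4 had 12 and 1, ELMO1, a partner of DOCK proteins, had 20 and 1, and XCR1 was the fourth of those lower. CXCR4 and the atypical receptor for the same ligand were thus both higher. Of 18 cytokines and receptors with other names, 4 (22.2%) were higher and 2 (11.1%) lower, which was not tested against all genes either. Those higher were LIFR with 333 and 1060 reads, LEPR with 45 and 156, CSF2RA with 108 and 453 and TNF with 14 and 50. CSF1, whose receptor IL34 also binds, had 334 and 75, 4.56-fold lower (3.54 to 5.94), and CSF3R had 9 and 1, a ratio of 9.21 (1.28 to 404).

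**Figure D5:**
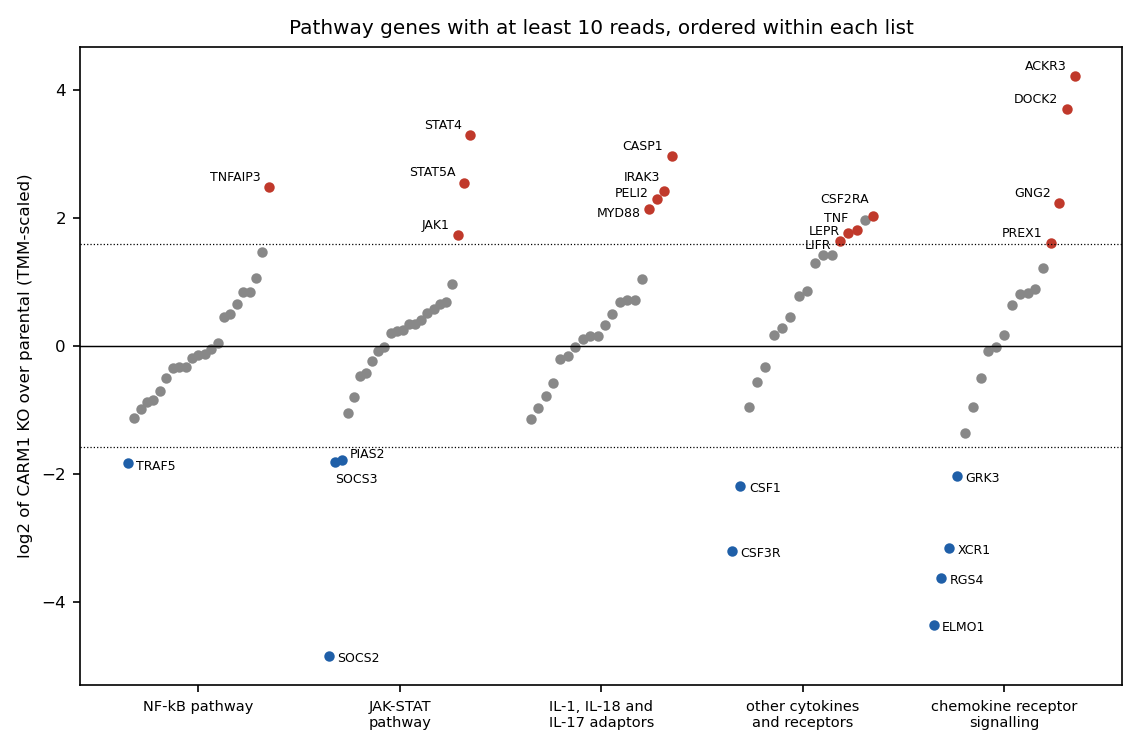
Log2 ratio of CARM1 KO to parental reads, TMM-scaled, for pathway genes with at least 10 reads (1 not drawn), ordered within each of 5 lists. Red points are the 16 genes higher and blue points the 10 lower past 3-fold, dotted lines mark 3-fold, and XCR1, with 0 reads in CARM1 KO, is set against 3 reads.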

How the data were processed

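A1847 RNA was extracted with Trizol and cleaned on columns with DNase, made into libraries with the ScriptSeq Gold kit and read as 75-base pairs on an Illumina sequencer. The authors aligned reads with bowtie2 to hg19 and estimated counts per Ensembl gene with RSEM (version 1.2.3 in the submitters' processing notes and another in the study's methods). The deposited counts are whole numbers, not normalized, and whether the counting used strand was not given in the sources used here. Each library was 1 column of that table, and the 2 were grouped by their genotype labels. From the counts, ratios were computed after TMM scaling (edgeR 4.0.16) with exact Clopper-Pearson 95% intervals (scipy 1.17.1). The intervals hold counting error and nothing else. Where a library had 0 reads, 3 were put in their place as a bound. Levels (RPKM) are reads scaled by merged exon length and TMM-scaled library size. The 3-fold threshold is that of the study's methods. The assumed-variation test in edgeR and DESeq2 1.42.0 size factors served as alternatives, as did other minimum counts and thresholds. A prior count of 2 reads was a further alternative for the ratios. Symbols and exon lengths came from GENCODE release 44 lifted to GRCh37, which matched 55501 of 57736 identifiers. Named were members past 3-fold or at 1 RPKM or more, other members with at least 10 reads by name or range, and per pathway list the genes past 3-fold (at most 5 in each direction) with NFKB1, RELA, NFKBIA, STAT3, SOCS3 and JAK1. Results for 1 member and 1 further pathway gene are not reported here. Members under 10 reads, overlapping and flanking genes and clusters were named after their values were seen. The members and lists were chosen with earlier results of these data known, and neither they nor the calls carry a p-value. Sequence shared between genes was counted as 75-base stretches of GENCODE transcripts. Overlaps between genes were taken from their whole spans, introns included, and overlap of exons was not examined.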

Additional observations from a re-analysis of the deposited data

How the results depend on the processing

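Under library size only, upper-quartile scaling, TMM on protein-coding genes and DESeq2 size factors, and under an assumed coefficient of variation of 0.12, the same 21 members were higher and the same 8 lower. With the main settings used here, 2295 of all genes were higher and 2070 lower, and 16 and 10 pathway genes. Under the other scalings, 2233 to 2341 of all genes were higher and 2006 to 2146 lower. With a minimum of 50 reads, 14 members were higher and 4 lower (among the latter CCR1, IL1RAPL2 and IL17D). The higher members that dropped out were CXCL3, IL10RA, IL1A, IL1R2, IL22RA1, IL34 and IL7. Of all genes 1649 were then higher and 1219 lower, and of pathway genes 14 and 6. With the whole interval beyond 3-fold, 1292 of all genes were higher, 1234 lower and 9 pathway genes higher, and CCL20, CXCL3, IL10RA, IL1R1, IL1RAP, IL6 and IL7 lost their calls. With a 2-fold threshold 3180 of all genes were lower. With an assumed coefficient of variation of 0.4, 8 members were higher and 5 lower, against 543 and 888 of all genes and 3 and 2 pathway genes; CXCL8, CXCL5 and IL6 were among the members that lost their calls, by the wider spread that test assumes. No direction reversed. Of 200 ratios of 40 members under the other scalings and a prior count of 2 reads, 199 moved by less than their counting interval. That of IL6ST became 0.43 on the log2 scale with TMM on protein-coding genes. Each scaling shifts all ratios by the same small amount, so it could not reverse a member past 3-fold. The prior count moved log2 ratios by unlike amounts, such as CXCL3 from 3.43 to 2.56 and IL1R2 from 3.55 to 4.23. The 200 ratios are therefore not separate pieces of support. No paired analysis was possible because each genotype was sequenced as 1 library, so leaving a library out was not possible either. Depth limits the genes with few reads: CXCL3, IL10RA and IL22RA1 rest on 2, 2 and 3 parental reads.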
